A study of Mus musculus with 6 samples.

Results

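The genes described here are 37 components of transforming growth factor beta (TGF-beta), activin and bone morphogenetic protein (BMP) signalling. They were taken by gene symbol, as ligands, receptors, SMADs, inhibitors and direct response genes. The rule uses no measured value, but the list was drawn up with earlier results of these data known. All 37 were found among the 24421 gene symbols of the count table. The 6 RNA-seq libraries came from livers of C57BL/6 males aged 4 months, 3 labelled Sesn3 KO (KO) and 3 labelled wild type (WT). All groups, WT included, had received for 4 weeks a diet whose energy was 20% protein, 40% fat and 40% carbohydrate, to which sodium cholate (a bile salt, 0.5%) and cholesterol (1.25%) had been added. No group on another diet is part of the comparison, and the labels do not say how the knockout allele was made or in which cells it acts. Sesn3 encodes sestrin 3, a stress-inducible regulator of mTORC1 and AMPK signalling.

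Ligands of this superfamily are secreted dimers that bring type I and type II receptor kinases together at the cell surface. The active type I receptor phosphorylates receptor SMADs, which join SMAD4, enter the nucleus and change transcription. TGF-betas and activins signal mainly through SMAD2 and SMAD3, and BMPs mainly through SMAD1, SMAD5 and SMAD9. In liver, TGF-beta is known for its action on hepatic stellate cells and matrix production, BMP9 (the product of Gdf2) for its action on endothelium, and the activin C and E subunits are made largely by hepatocytes.

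Library totals lay between 18882220 and 24098512 counts. Values are given as CPM, counts scaled to library size with TMM factors (a correction for library composition). Sesn3 itself checked the labels: it was at 0.761, 0.695 and 0.689 CPM in KO replicates 1 to 3 and at 9.0, 11.6 and 10.4 CPM in WT replicates 1 to 3. The hepatocyte markers summed to between 88529 and 143066 CPM in WT and between 90540 and 110823 CPM in KO, a sum made up mostly of Alb, the albumin gene. Alb was at 76209 ± 8099 CPM in KO and 71749 ± 25196 CPM in WT (mean ± SD, n = 3 per genotype), and the other 6 hepatocyte markers had negative log2 differences.

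All 37 members had enough reads to be tested, the lowest having 186 counts over the 6 libraries. In the comparison of KO with WT, which asks whether transcripts of the pathway differ between the genotypes on this diet, 3 members rose and 2 fell at an adjusted p under 0.05 (edgeR quasi-likelihood test, Benjamini-Hochberg over all 12945 genes tested). The risers were Tgfb2, a TGF-beta ligand, Fst, the activin-binding protein follistatin, and Cyr61, a secreted matricellular protein induced by TGF-beta and by YAP. Inhbc, the activin beta C subunit, and Acvr2b, a type II activin receptor, fell. The 5 members make up 13.5% of the 37, beside 6.94% of all genes tested. The risers were 8.11% of the members against 3.36% of all genes, and the fallers 5.41% against 3.58%. With so few members called, these shares are given as a description.

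The median log2 fold change was 0.19 over the 37 members and 0.00267 over all genes tested, and the median absolute log2 fold change was 0.32 against 0.28. Positive values were found for 25 members and negative values for 12. KO and WT libraries did not overlap for 10 members (27.0%), a share below the 33.5% of all genes tested. Of the 32 members not called, 24 had a normal-based interval that lay within 1 log2 unit of no change, and 8 had one that reached further. Normal-based intervals take a normal multiple of the SE either side, nominally 95%, and are narrower than 95% intervals of the edgeR test. That of Smad3, 0.0467 to 0.794, excluded no change although its unadjusted edgeR p was 0.0605. The 24 may therefore be too many.

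**Figure D1:**
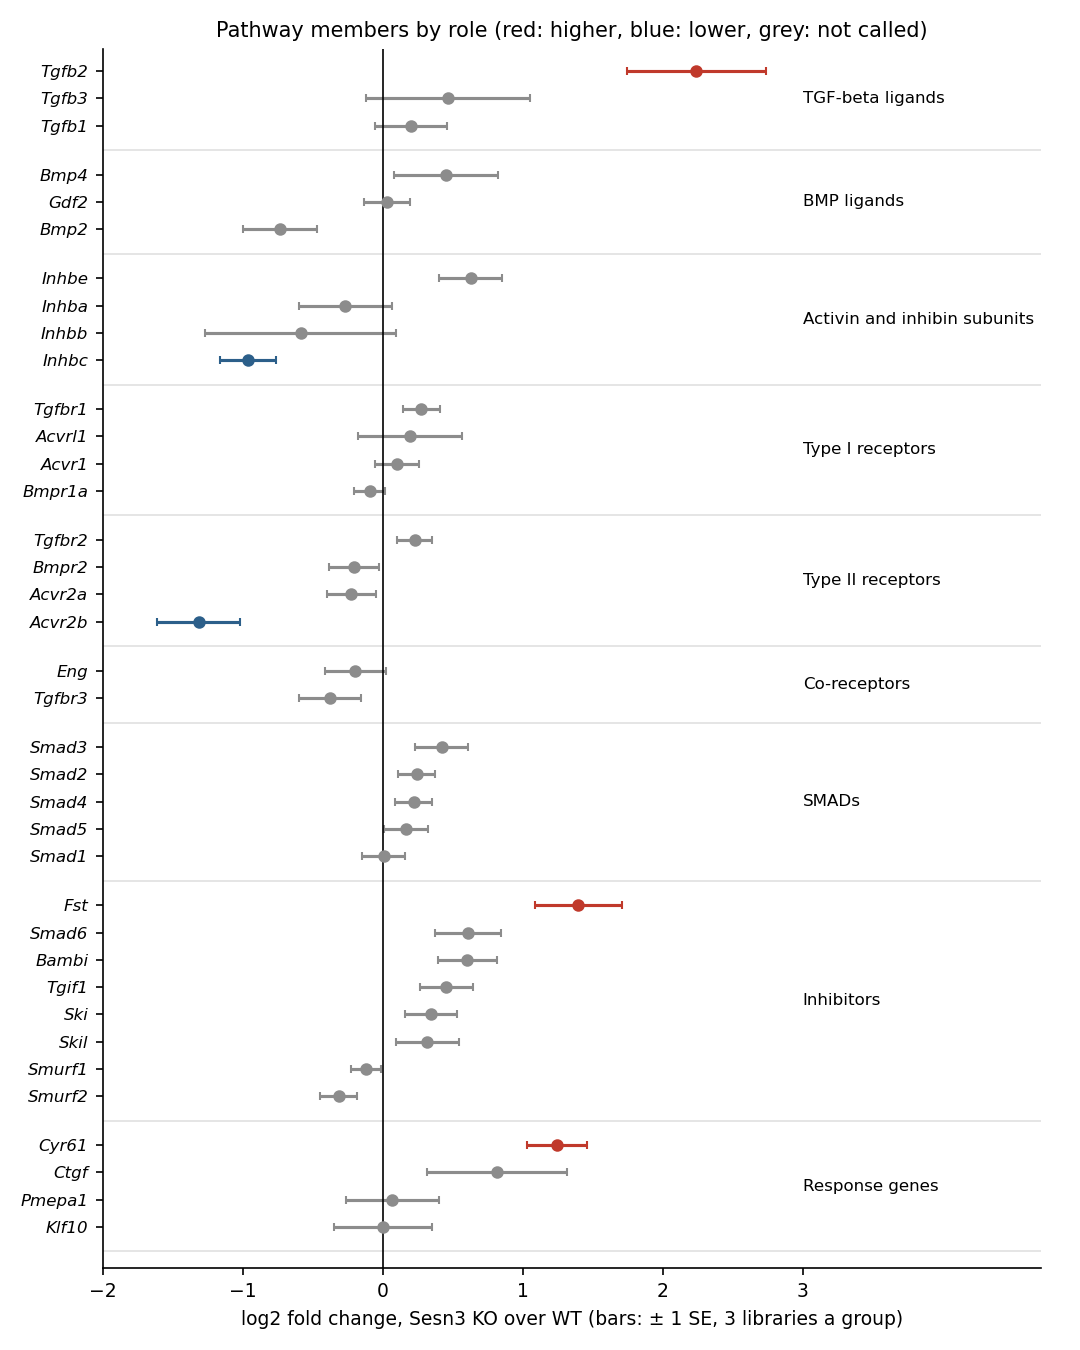
Log2 fold change of each member, KO over WT, grouped by role, with bars of 1 SE either side (3 libraries a group). Red points are higher and blue points lower at an adjusted p under 0.05, and grey points were not called; Tgfb2 lies farthest to the right at 2.24 and Acvr2b farthest to the left at -1.32.

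Among the TGF-beta ligands, Tgfb2 was at 2.20, 4.82 and 1.98 CPM in KO replicates 1 to 3 and at 0.890, 0.407 and 0.588 CPM in WT replicates 1 to 3. The lowest KO library was above the highest WT library, and KO replicate 2 stood well above the other KO libraries. The rise was 4.73-fold, from 0.628 ± 0.244 to 3.001 ± 1.58 CPM (mean ± SD, n = 3 per genotype). The log2 fold change was 2.24 with an SE of 0.50, and edgeR gave it an adjusted p of 0.0408. It rests on low counts, 52, 125 and 46 against 17, 7 and 11. Without KO replicate 2 the log2 fold change was 1.72, with an edgeR adjusted p of 0.144.

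Tgfb1, the most studied isoform, was at 37.9, 34.8 and 29.3 CPM in KO and at 38.8, 18.6 and 31.1 CPM in WT. The groups overlapped (log2 difference 0.20, SE 0.26, edgeR adjusted p = 0.659), and the sign changed without WT replicate 2. Tgfb3 ranged from 0.732 to 3.36 CPM in KO and from 0.814 to 2.04 CPM in WT (log2 difference 0.47, SE 0.58). Within each library, Tgfb2 had 0.0580, 0.139 and 0.0677 counts per count of Tgfb1 in KO and 0.0229, 0.0219 and 0.0189 in WT. This ratio was chosen after the values were seen. It was higher in all 3 KO libraries (exact permutation p = 0.1, two-sided, the smallest that 3 against 3 allows).

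Per kilobase of exon, Tgfb2 had the lowest WT level of the 37 members, 0.108 ± 0.0421 CPM per kb (SD, n = 3), against 5.85 ± 2.02 for Tgfb1 and 0.439 ± 0.184 for Tgfb3. In KO the level of Tgfb2 was 0.518 ± 0.273 CPM per kb, beside 0.607 ± 0.388 for Tgfb3 and 6.74 ± 0.866 for Tgfb1. Tgfb1 therefore had the highest level of the 3 isoforms in each genotype.

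The 3 BMP ligands held no call with edgeR or DESeq2, and 1 of them, Bmp2, had an unadjusted edgeR p under 0.05. Bmp2, which liver endothelium secretes, was at 19.02, 19.8 and 10.9 CPM in KO replicates 1 to 3 and at 29.0, 33.1 and 20.7 CPM in WT. Every WT library was above every KO library, by a narrow margin between KO replicate 2 and WT replicate 3. The log2 difference was -0.73 (SE 0.27, edgeR adjusted p = 0.139), and -0.51 without KO replicate 3. Gdf2, which encodes BMP9, had nearly equal means, 38.3 ± 2.71 CPM in KO and 37.5 ± 7.59 in WT (SD, n = 3 each). Its log2 difference was 0.0289 (SE 0.16, normal-based interval -0.29 to 0.35). Bmp4 stayed low, between 1.55 and 3.42 CPM in KO and between 1.52 and 2.40 CPM in WT.

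The 4 activin and inhibin beta subunits did not move together. Inhbc, whose product forms activin C, was at 38.5, 39.8 and 35.3 CPM in KO and at 97.9, 67.1 and 56.4 CPM in WT. The KO libraries lay close together and below all WT libraries, whereas the WT libraries were spread. The fall was 1.95-fold, from 73.8 ± 21.5 to 37.9 ± 2.32 CPM (mean ± SD, n = 3 per genotype). The log2 fold change was -0.96 with an SE of 0.20, and edgeR gave it an adjusted p of 0.0365. Its neighbour Inhbe, which encodes the beta E subunit, was at 38.8, 39.4 and 37.4 CPM in KO and at 21.4, 18.8 and 34.7 CPM in WT. All KO libraries were above all WT libraries, WT replicate 3 being near to them, and the gene was not called (log2 difference 0.63, SE 0.22, edgeR adjusted p = 0.131). When WT replicate 3 was left out Inhbe passed, at a log2 fold change of 0.95 and an edgeR adjusted p of 0.0330.

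In the GENCODE annotation Inhbc and Inhbe lie 1910 bases apart on chromosome 10 of mm10, both on the minus strand. Inhbe runs from 127348857 to 127354411 and Inhbc from 127356322 to 127370431. They are the closest pair among the 37 members. The RefSeq window before the Inhbe start, 127351849 to 127352098, lies within the GENCODE span of Inhbe. The distance and the level of Inhbe per kilobase therefore depend on the annotation. The count of Inhbe divided by that of Inhbc, which does not depend on scaling between libraries, was 1.01, 0.990 and 1.06 in KO replicates 1 to 3 and 0.219, 0.280 and 0.615 in WT replicates 1 to 3. The KO ratios were nearly constant (1.02 ± 0.0356, SD, n = 3), the WT ratios were not (0.371 ± 0.213, SD, n = 3), and the groups did not overlap. The change in ratio was 3.04-fold (log2 1.604, between 1.30 and 2.04 when each library was left out). The exact permutation p was 0.1 (two-sided), the smallest possible with 3 against 3, and the ratio was chosen after the values were seen. Every KO library was already above every WT library for Inhbe and below it for Inhbc. That fixed the separation of the ratio and this p, which adds nothing to the values. Per kilobase of exon, Inhbc had the highest WT level of all members (39.7 ± 11.6 CPM per kb, SD, n = 3), and in KO stood at 20.4 ± 1.25, while Inhbe was at 4.69 ± 1.601 in WT and 7.25 ± 0.196 in KO.

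**Figure D2:**
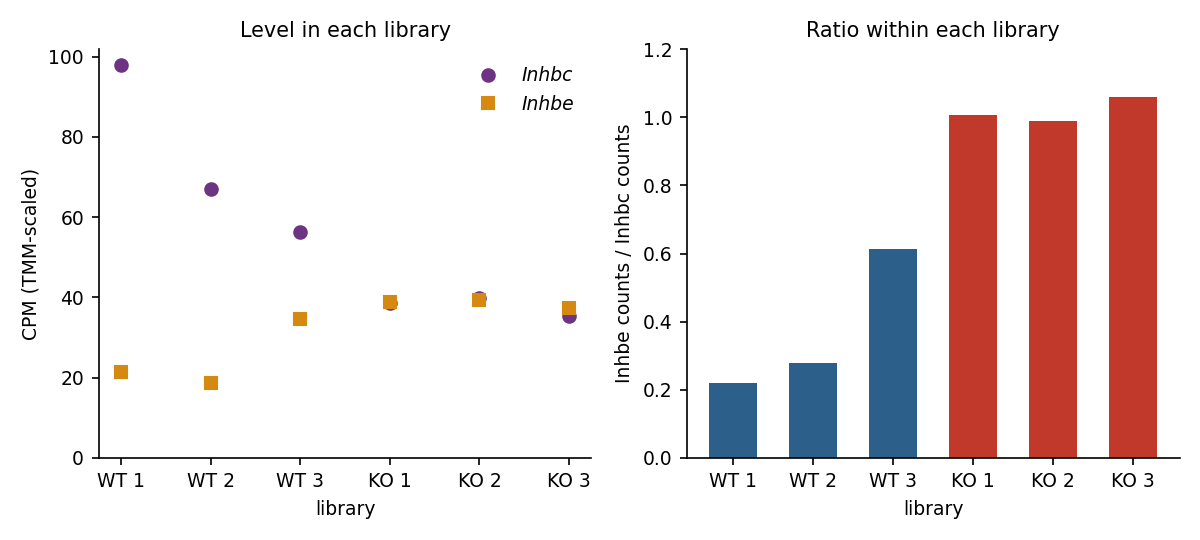
Left, CPM of Inhbc (circles) and Inhbe (squares) in each of the 6 libraries, not corrected for gene length, so that each gene is to be compared with itself across libraries. Right, Inhbe counts divided by Inhbc counts in the same libraries (bars from 0), which lie between 0.219 and 0.615 in WT and between 0.990 and 1.06 in KO.

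The other beta subunits, Inhba and Inhbb, which form activins A and B, were low. Inhba lay between 0.965 and 1.56 CPM in KO and between 1.44 and 1.74 CPM in WT (log2 difference -0.27, SE 0.33). Inhbb varied widely within each genotype, from 1.12 to 5.45 CPM in KO and from 1.51 to 6.30 CPM in WT. Its log2 difference was -0.59 (SE 0.68, normal-based interval -1.92 to 0.75).

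Of the 4 type I receptors 0 were called by edgeR or DESeq2 and 0 had an unadjusted p under 0.05, with log2 differences from -0.0934 to 0.28. Tgfbr1, the type I receptor for TGF-beta, was at 47.8, 54.8 and 42.3 CPM in KO and at 42.5, 35.9 and 41.2 CPM in WT (edgeR adjusted p = 0.235). Acvrl1, the endothelial receptor for BMP9, was within its spread (log2 difference 0.19, SE 0.37). Acvr1 and Bmpr1a, type I receptors used by BMPs, differed by 0.10 (SE 0.16) and -0.0934 (SE 0.11) on the log2 scale.

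Among the 4 type II receptors Acvr2b stood apart. It was at 1.44, 1.35 and 1.42 CPM in KO and at 2.67, 4.53 and 3.31 CPM in WT. The KO libraries were almost equal and all below the lowest WT library. The fall was 2.49-fold, from 3.50 ± 0.948 to 1.40 ± 0.0462 CPM (mean ± SD, n = 3 per genotype). The log2 fold change was -1.32 with an SE of 0.30, and edgeR gave it an adjusted p of 0.0428, on counts of 34, 35 and 33 against 51, 78 and 62. Acvr2a, the other type II activin receptor, was at 17.0, 16.7 and 19.3 CPM in KO and at 16.5, 25.2 and 20.4 CPM in WT, with overlapping groups (log2 difference -0.23, SE 0.17, edgeR adjusted p = 0.456). For each count of Acvr2a there were 0.0844, 0.0806 and 0.0737 counts of Acvr2b in KO and 0.162, 0.180 and 0.162 in WT. That ratio, also chosen after the values were seen, was 0.473 times as high in KO (exact permutation p = 0.1, two-sided, the smallest possible). Per kilobase of exon, Acvr2b was far below Acvr2a in either genotype: 0.892 ± 0.241 against 3.64 ± 0.770 CPM per kb in WT, and 0.357 ± 0.0118 against 3.11 ± 0.246 in KO (SD, n = 3 each).

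Tgfbr2, the type II receptor for TGF-beta, was at 84.5, 82.0 and 75.0 CPM in KO and at 68.0, 60.5 and 77.8 CPM in WT (log2 difference 0.23, SE 0.13, edgeR adjusted p = 0.303). Bmpr2, the BMP type II receptor, had a log2 difference of -0.20 (SE 0.18). The co-receptors Eng (endoglin, of endothelium) and Tgfbr3 (betaglycan) had log2 differences of -0.20 (SE 0.22) and -0.38 (SE 0.22), with overlapping libraries. Eng was at 117, 109 and 66.9 CPM in KO and at 123, 116 and 96.9 CPM in WT, so that KO replicate 3 was the lowest.

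Of the 5 signal-carrying SMADs 0 were called by edgeR or DESeq2, and 0 had an unadjusted p under 0.05. They had positive log2 differences, of 0.42 (SE 0.19) for Smad3, 0.24 (SE 0.13) for Smad2, 0.22 (SE 0.13) for Smad4, 0.16 (SE 0.16) for Smad5 and 0.00578 (SE 0.15) for Smad1. The sign for Smad1 was negative with RLE factors, DESeq2 and limma-voom. Smad3, a transducer of TGF-beta and activin signals, was at 28.2, 17.9 and 20.9 CPM in KO and at 18.8, 15.9 and 15.4 CPM in WT. Only KO replicate 2 lay within the WT range (edgeR adjusted p = 0.217). These are transcript levels. Phosphorylation of the SMAD proteins, the step that signalling acts on, was not measured.

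The 8 inhibitors comprise a ligand trap, a pseudoreceptor, an inhibitory SMAD, ubiquitin ligases and co-repressors. Fst, the trap for activins, was at 5.28, 5.79 and 4.61 CPM in KO and at 2.09, 1.22 and 2.62 CPM in WT. The groups were well apart. The rise was 2.63-fold, from 1.98 ± 0.705 to 5.23 ± 0.591 CPM (mean ± SD, n = 3 per genotype). The log2 fold change was 1.40 with an SE of 0.31, and edgeR gave it an adjusted p of 0.0416. Bambi, a membrane pseudoreceptor that lacks a kinase domain, was at 6.59, 7.02 and 5.77 CPM in KO and at 4.34, 3.49 and 4.91 CPM in WT. Its libraries did not overlap either, but it was not called (log2 difference 0.60, SE 0.21, edgeR adjusted p = 0.126).

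Smad6, the inhibitory SMAD of the BMP branch, was at 11.6, 14.7 and 9.74 CPM in KO and at 10.2, 6.92 and 6.57 CPM in WT, overlapping through WT replicate 1 (log2 difference 0.61, SE 0.24, edgeR adjusted p = 0.158). Tgif1, a co-repressor gene, was at 33.3, 24.4 and 22.9 CPM in KO and at 20.1, 16.5 and 22.3 CPM in WT, so that every KO library was above every WT library by a narrow margin (log2 difference 0.45, SE 0.19, edgeR adjusted p = 0.177). The co-repressor genes Ski and Skil had log2 differences of 0.34 (SE 0.19) and 0.32 (SE 0.23). Ski passed without WT replicate 1, at a log2 fold change of 0.60 (edgeR adjusted p = 0.0334). The ubiquitin ligase genes Smurf1 and Smurf2 had negative values, -0.12 (SE 0.11) and -0.32 (SE 0.13). Smurf2 libraries did not overlap, at 43.7, 41.6 and 46.1 CPM in KO and 49.2, 64.5 and 49.8 CPM in WT (edgeR adjusted p = 0.192).

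Of the 4 response genes only Cyr61 was called. It was at 19.3, 15.5 and 16.6 CPM in KO and at 5.28, 9.01 and 7.37 CPM in WT. The lowest KO library was above the highest WT library by a wide margin. The rise was 2.37-fold, from 7.22 ± 1.87 to 17.1 ± 1.98 CPM (mean ± SD, n = 3 per genotype). The log2 fold change was 1.25 with an SE of 0.21, and edgeR gave it an adjusted p of 0.0201, the smallest adjusted p among the members. Ctgf, a related matricellular gene induced by TGF-beta and YAP, was at 7.82, 25.4 and 31.9 CPM in KO and at 13.2, 15.9 and 7.90 CPM in WT. KO replicates 2 and 3 were above every WT library and KO replicate 1 was below all of them, so that the 3 KO libraries did not give 1 level. Its log2 difference was 0.81 (SE 0.50, edgeR adjusted p = 0.352), and 1.23 without KO replicate 1 (adjusted p = 0.0906). Pmepa1, a TGF-beta-induced gene whose product holds back receptor SMADs, and Klf10, a TGF-beta-inducible zinc finger factor, had log2 differences of 0.0678 (SE 0.33) and 0.00363 (SE 0.35), each smaller than its error.

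**Figure D3:**
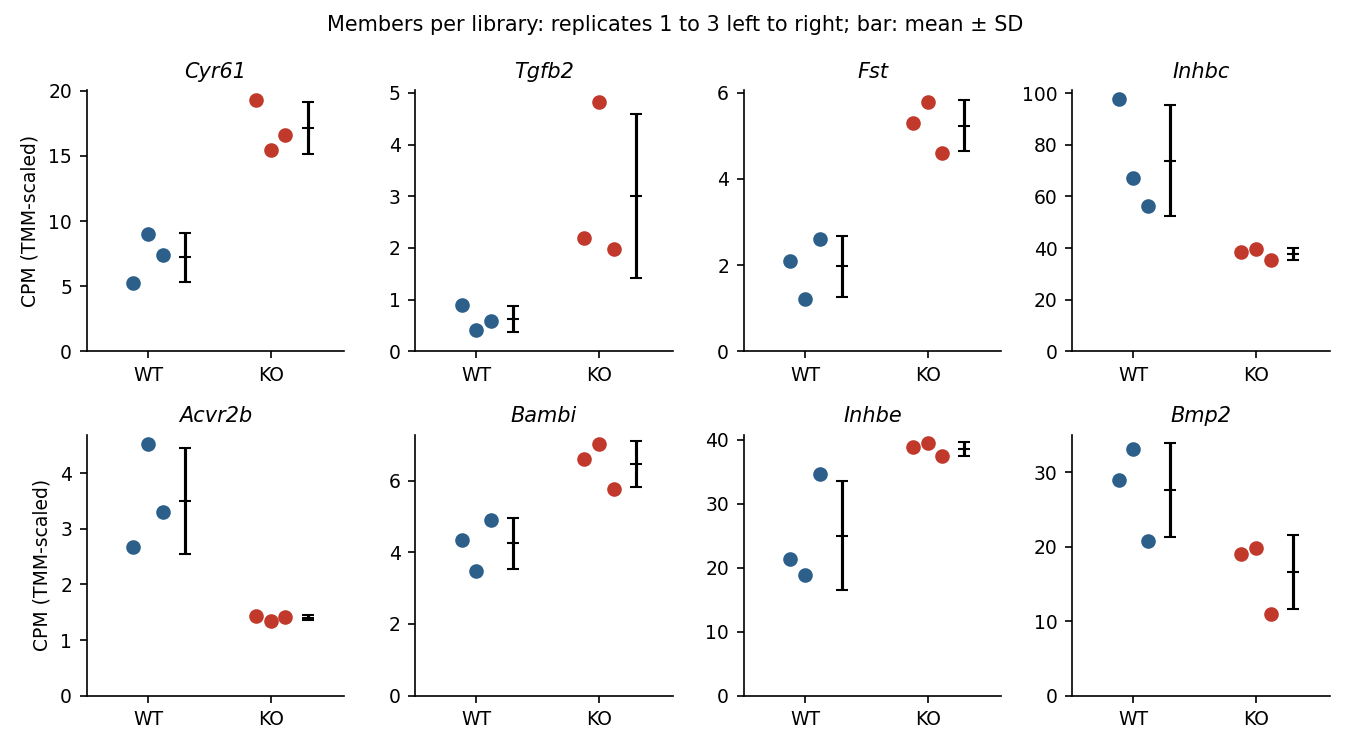
CPM in each library (blue, WT; red, KO; replicates 1 to 3 from left to right) for the 5 called members and the 3 members not called with the smallest p, Bambi, Inhbe and Bmp2. Black bars give the mean and SD of 3 libraries; in all 8 panels the points of KO and WT do not overlap.

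Promoter sequences are shown for Cyr61, Tgfb2 and Inhbc, called members whose window held a searched motif. Of the 37 members, 25 genes matched the RefSeq promoter table (GRCm38.p6), with 32 start sites, and only the 250 bases before each start were searched, on both strands. The motifs were the SMAD box CAGACA, the SMAD palindrome GTCTAGAC, the BMP-type SMAD motif GGCGCC and the TEAD motif CATTCC (TEAD factors bind with YAP). No searched motif overlaps another in the windows printed, and capitals mark them. The Cyr61 window is chr3:145649986-145650235, the Tgfb2 window chr1:186705990-186706239 and the Inhbc window chr10:127370549-127370798, all on the minus strand and read 5′ to 3′.
Cyr61: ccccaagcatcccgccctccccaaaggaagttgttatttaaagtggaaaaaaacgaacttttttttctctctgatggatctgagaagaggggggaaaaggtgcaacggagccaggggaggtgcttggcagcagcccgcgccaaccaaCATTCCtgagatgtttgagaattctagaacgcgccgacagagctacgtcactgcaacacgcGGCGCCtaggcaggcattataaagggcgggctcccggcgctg
Tgfb2: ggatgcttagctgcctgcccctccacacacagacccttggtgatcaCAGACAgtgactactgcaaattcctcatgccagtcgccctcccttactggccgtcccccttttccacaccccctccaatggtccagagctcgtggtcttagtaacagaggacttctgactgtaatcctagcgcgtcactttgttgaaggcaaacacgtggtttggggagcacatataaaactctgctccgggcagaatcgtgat
Inhbc: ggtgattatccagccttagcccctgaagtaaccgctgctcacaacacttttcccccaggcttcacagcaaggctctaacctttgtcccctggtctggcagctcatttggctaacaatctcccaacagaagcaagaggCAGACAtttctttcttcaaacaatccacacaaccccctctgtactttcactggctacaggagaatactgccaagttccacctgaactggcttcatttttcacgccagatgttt

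In Cyr61 the CATTCC motif begins 103 bases and GGCGCC 42 bases before the start. CAGACA begins 204 bases before the start in Tgfb2 and 113 bases before it in Inhbc, so that it was found in a member that rose and in a member that fell. CAGACA was in 6 of the 32 member windows (18.8%) and in 17.1% of all 32851 promoters of the same length. GGCGCC was in 7 (21.9%) against 9.59%, and CATTCC in 1 (3.13%), that of Cyr61, against 12.6%. The palindrome was in 0 member windows and in 0.167% of all promoters. Read 5′ to 3′, the Tgfb2 window ends where the annotated gene begins, and it overlaps an exon of another gene. These matches describe letters in a short window and not bound sites.

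The members lie on 16 chromosomes. Smad3 and Smad6, the next closest pair after Inhbe and Inhbc, are 195081 bases apart on chromosome 9. Exons of 10 members share bases with a gene on the opposite strand, among them Tgfb2 (124 bases, with Gm29491), Fst (115 bases, with Gm47040) and Inhbc (268 bases, with Gm47200), and the strand setting of the counting is not given in the sources used here. Cyr61, Acvr2b and Inhbe share no exon base with another gene.

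Other genes of the pathway were taken from a list of 54, of which 43 had enough reads to be tested. Of these, 5 rose and none fell (11.6% of the tested genes, beside 6.94% of all genes), with a median log2 fold change of 0.33. At an unadjusted edgeR p under 0.05, 13 of them were higher and 1 lower, and DESeq2 called 10 higher and 1 lower. Of all 12945 genes tested, 3334 had such an unadjusted p. Over the whole table DESeq2 called 924 genes higher and 1040 lower. The 6.94% refers to edgeR calls at an adjusted p alone. Ltbp2 and Ltbp3 belong to the family of latent TGF-beta binding proteins. Ltbp2 rose 4.27-fold (log2 2.09, SE 0.37, edgeR adjusted p = 0.0224), from 0.837, 0.756 and 0.961 CPM in WT to 2.87, 5.33 and 2.76 CPM in KO. Ltbp3 rose 2.74-fold, from 3.63 ± 1.16 to 9.98 ± 1.95 CPM (mean ± SD, n = 3 per genotype), with an edgeR adjusted p of 0.0275. Id1, a BMP-induced inhibitor of DNA binding, was at 34.2, 22.1 and 19.8 CPM in KO and at 8.48, 2.91 and 7.69 CPM in WT, a rise of 3.98-fold (log2 1.99, SE 0.40, edgeR adjusted p = 0.0348). Id3, of the same family, had a log2 difference of 1.08 (SE 0.28) that was not called by edgeR (adjusted p = 0.0645) and was called by DESeq2. Nedd4l, a ubiquitin ligase that acts on activated SMAD2 and SMAD3, rose 1.59-fold (edgeR adjusted p = 0.0245). Itgb5, an integrin subunit that pairs with the alpha v chain, rose 1.46-fold (edgeR adjusted p = 0.0428).

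By role, the 9 tested genes listed under latent TGF-beta handling held 3 of these calls, the 11 SMAD partners and modifiers 1 and the 8 response genes 1. Ltbp2 is counted under latent TGF-beta handling as a member of the binding protein family. Ltbp1 and Ltbp4, of the same family, were not called (log2 differences 0.57, SE 0.42, and -0.048, SE 0.30). None of the 5 tested further ligands, 6 antagonists or 4 receptors was called by edgeR. Fstl1, a follistatin-like antagonist, was higher at an unadjusted p under 0.05 and was called by DESeq2, and 0 of the ligands and receptors had such a p or a DESeq2 call. Thbs1, an activator of latent TGF-beta, and the contractile genes Acta2 and Tagln had positive log2 differences that did not pass with edgeR and did with DESeq2: 1.52 (SE 0.48), 1.502 (SE 0.47) and 1.37 (SE 0.38).

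In bulk RNA, a change in the number of cells of a type and a change in RNA per cell cannot be told apart. Marker lists of other liver cells are therefore given beside the members. Myofibroblast markers summed to between 601 and 862 CPM in KO and between 72.6 and 244 CPM in WT, and 4 of 8 rose, Col1a1, Col1a2, Col3a1 and Postn. The collagen genes Col1a1, Col1a2 and Col3a1 made up most of the sum, with means of 167, 157 and 368 CPM in KO. Their WT means were 23.9, 31.8 and 75.3 CPM. Log2 differences were positive for all 8, and the contractile genes Acta2 and Tagln had overlapping groups. Kupffer cell and macrophage markers summed to between 1958 and 2457 CPM in KO and between 854 and 1643 in WT, with 3 of 9 rising, Clec4f, Vsig4 and Trem2. Log2 differences were positive for 8 of the 9 and negative for Timd4 (-0.52, SE 0.43). Adgre1, Csf1r and Timd4 had overlapping groups. Cd5l was the largest part of the sum, at 1107 ± 155 CPM in KO and 548 ± 216 CPM in WT (mean ± SD, n = 3 per genotype). It was not called by edgeR (adjusted p = 0.0826) and was called by DESeq2. Hepatic stellate markers summed to between 391 and 399 CPM in KO and between 327 and 383 in WT. Of these 10 markers edgeR called 0, and 5 were higher at an unadjusted edgeR p under 0.05. DESeq2 called 3 higher, Pdgfrb, Hand2 and Lhx2. Log2 differences were positive for 9 of the 10. Ecm1, the largest part of the sum, went the other way (-0.24, SE 0.16), at 126 CPM in KO and 149 CPM in WT on average. These sums moved in the same direction as Tgfb2, Fst, Cyr61, Ltbp2, Ltbp3 and Id1, and their part in those rises was not tested.

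Sinusoidal endothelial markers went the other way, with negative log2 differences for 9 of 10 genes and 0 called by edgeR or DESeq2 (1 higher and 1 lower at an unadjusted p under 0.05). Their sum was 523, 451 and 241 CPM in KO replicates 1 to 3 and 568, 584 and 442 CPM in WT. KO replicate 3 was lowest in this sum, and also in Eng and Bmp2. The part of endothelial content in their values was not tested. Of the remaining lists, cholangiocyte markers summed to between 112 and 131 CPM in KO and between 70.7 and 111 in WT, with 0 of 6 tested genes called by edgeR or DESeq2 and 1 at an unadjusted p under 0.05. Lymphocyte markers summed to between 6.21 and 9.47 CPM in KO and between 4.88 and 17.4 in WT, with 0 of 6 called by either tool and 1 at an unadjusted p under 0.05. Of the 7 hepatocyte markers present edgeR called Serpina1c alone, which fell (log2 -1.62, SE 0.29, edgeR adjusted p = 0.0234), and DESeq2 called 3 lower, Serpina1c, Ttr and Apoa1. For Ttr and Apoa1 too every WT library was above every KO library (log2 differences -0.96 and -0.71, edgeR adjusted p = 0.0682 and 0.0976). Serpina1c, Ttr and Apoa1, 3 genes of secreted hepatocyte proteins, thus moved in the same direction as Inhbc. The remaining hepatocyte markers had overlapping groups, with log2 differences of -0.11 for Apob, -0.14 for Hnf4a, -0.25 for Cps1 and 0.087 for Alb. The part of hepatocyte content in the value of Inhbc was not tested. Of the 5 markers of pancreas, adipose tissue and muscle only Cela1, an elastase gene, had enough reads. It was at 7.35, 7.45 and 8.53 CPM in KO and at 13.4, 56.9 and 21.8 CPM in WT, every WT library being above every KO library. It was not called by edgeR (log2 difference -1.98, SE 0.50, edgeR adjusted p = 0.0607) and was called lower by DESeq2. Prss1, a pancreatic trypsinogen gene, was at 0 in every library.

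**Figure D4:**
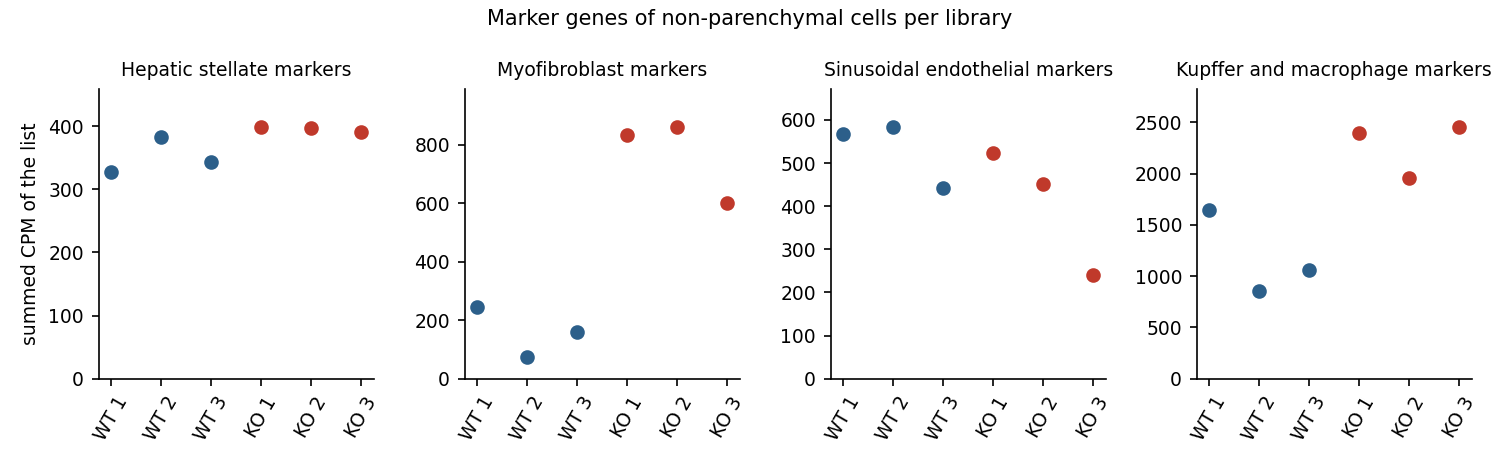
Summed CPM of 4 marker lists in each library (blue, WT; red, KO). Myofibroblast and macrophage sums are higher in every KO library than in every WT library, stellate sums differ less, and the endothelial sum is lowest in KO replicate 3 at 241 CPM.

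The 5 calls lay close to the threshold, and their directions held in all 14 alternative fits. DESeq2 called all 5, but on simulated data 21.3% of its calls were false, against 11.2% with edgeR. None of the 5 passed without KO replicate 1, without KO replicate 2 or without KO replicate 3. Over the 6 fits that left out a library, the edgeR adjusted p of Cyr61 ran from 0.0091 to 0.0775, that of Inhbc from 0.0301 to 0.129 and that of Tgfb2 from 0.0460 to 0.144. For Fst it ran from 0.0446 to 0.158, and for Acvr2b from 0.0369 to 0.159. Passing fits numbered 2 for Cyr61, 3 for Inhbc and 1 each for Tgfb2, Fst and Acvr2b. Of these 5, only Inhbc passed without WT replicate 3. Library size alone, which moved the median of all genes by 0.21 on the log2 scale, left Inhbc (adjusted p = 0.0737) and Acvr2b (adjusted p = 0.0646) short of a call, as limma-voom did Tgfb2 (adjusted p = 0.0681) and Acvr2b (adjusted p = 0.0513).

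**Figure D5:**
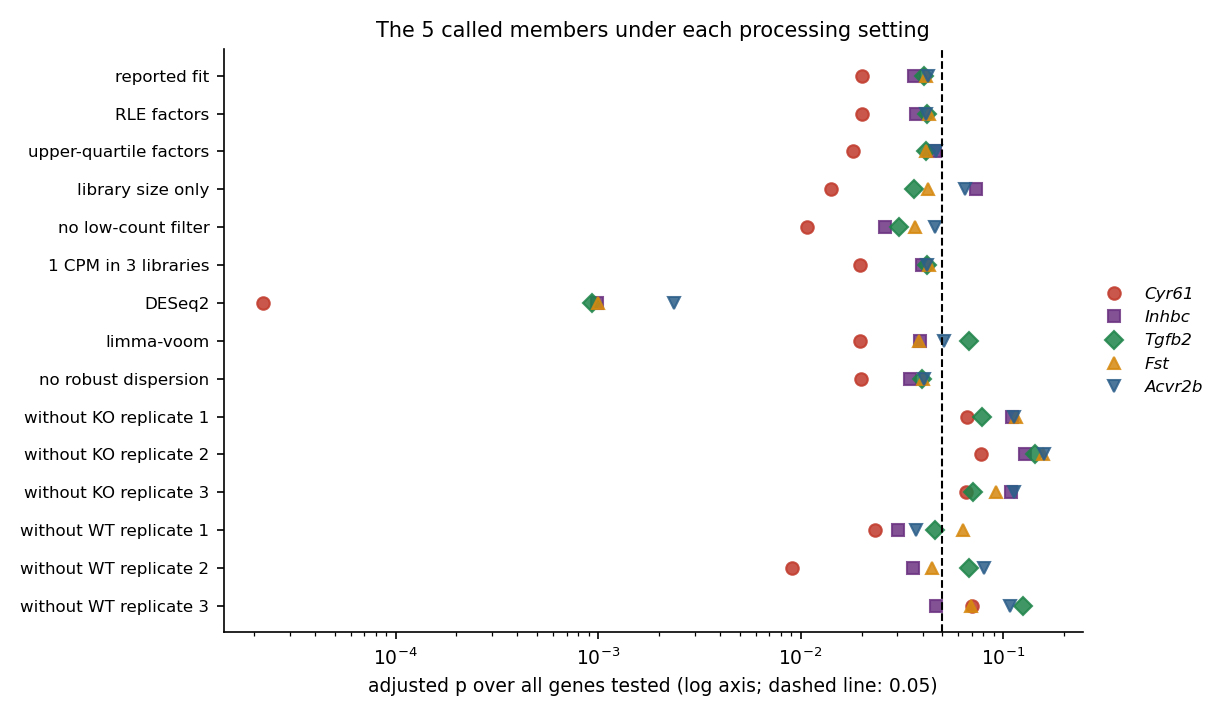
Adjusted p (log axis, dashed line at 0.05) of the 5 called members in the reported fit and in 14 alternatives. All 5 lie left of the line in the reported fit and with DESeq2, and all lie right of it in each fit without a KO library.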

How the data were processed

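The authors deposited raw counts, whole numbers by gene symbol, in 1 table for all 6 libraries. Per the submitters' processing notes the tools were Subread 1.5.3 with featureCounts, STAR 2.5 and edgeR 3.20.8, and the build mm10. How each was used, which annotation and which strand setting is not given in the sources used here. Libraries were grouped by the labelled genotype and numbered in accession order, which pairs none of them. The labels do not say whether they come from separate animals, and a p-value measures only the spread among these 6, which may be technical. Chi-square per degree of freedom was 21.5 or more between replicates, so none was a second sequencing of the same library. This value cannot tell libraries made from 1 animal from libraries of separate animals.

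Counts were tested with edgeR 4.0.16 (R 4.3.3) after filterByExpr with a minimum count of 10 and a minimum total of 15, TMM factors, robust glmQLFit, two-sided quasi-likelihood F-test, Benjamini-Hochberg over 12945 genes, threshold 0.05. The SE is the absolute log2 fold change over the square root of F. Exon lengths and positions came from GENCODE mouse release 21 (mm10), which matched all 37 members; Ctgf and Cyr61 are listed there as Ccn2 and Ccn1. CPM per kb divides by the union of all annotated exons.

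Members and lists were chosen with earlier results of these data known. Full values were given for called members, for members with separate groups and an absolute log2 fold change of at least 0.58, and for the 3 members not called with the smallest p. Library values of further members were added to show their role's spread, chosen after their values were seen. The alternatives tried were upper-quartile or RLE factors, no scaling beyond library size, 2 other filters, DESeq2 1.42.0, limma-voom (limma 3.58.1), no robust dispersion and leaving out each library. The ratios within libraries were added after seeing the data. On simulated data for this comparison (12945 genes, 50 changed at each size) edgeR recovered 4% of 1.5-fold, 50% of 2-fold and 88% of 4-fold changes, and 11.2% of its calls were false. A gene of the other pathway genes is counted in the list totals and not reported here by name.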

Additional observations from a re-analysis of the deposited data

How the results depend on the processing

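The 5 called members kept their direction in every alternative fit run. Members higher in KO numbered 3 and lower 2 with RLE or upper-quartile factors, either other low-count filter, DESeq2, no robust dispersion and a threshold of 0.1. With library size only the lower members numbered 0, and with limma-voom 1. When 1 library was left out, higher members ranged from 0 to 3 and lower members from 0 to 2. Other pathway genes called were 5, against 11 with DESeq2 and 0 to 6 without 1 library. Over all genes, 435 were higher and 463 lower, against 707 and 258 with library size only, 924 and 1040 with DESeq2, and 48 to 504 and 53 to 475 without 1 library. The cause of these shifts was not tested.

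Signs changed only for members that were not called. With library size only Eng (0.034), Smurf1 (0.094), Bmpr1a (0.11) and Bmpr2 (0.021) became positive. Smad1 became negative with RLE factors (-0.0017), DESeq2 (-0.0022) and limma-voom (-0.0078), and Klf10 with DESeq2 (-0.0024). Leaving out 1 library gave log2 ranges of -0.041 to 0.46 for Tgfb1, -0.086 to 0.86 for Tgfb3, -0.34 to 0.015 for Eng, -0.13 to 0.085 for Smad1, -0.017 to 0.22 for Acvr1, -0.13 to 0.67 for Acvrl1, -0.13 to 0.12 for Gdf2, -0.22 to 0.40 for Pmepa1 and -0.33 to 0.28 for Klf10. No paired analysis was possible because the labels give the groups no shared replicate numbers. Low counts limit Tgfb2, Acvr2b, Inhba and Tgfb3 most. A change under 2-fold may be missed, as most 1.5-fold changes were on the simulated data.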
